A study of Mus musculus with 8 samples.

Results

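Gasdermins were followed through mouse small and large intestine: the Gasdermin C genes Gsdmc, Gsdmc2, Gsdmc3 and Gsdmc4, together with Gsdmd and Gsdme. These 6 genes, of 32285 listed in the matrices, were selected on levels already seen in these data, so their levels are given as a description with no test. The study asked how lymphatic vessels and intestinal stem cells interact, and deposited 8 libraries of unique molecular identifier (UMI) counts from C57BL/6 mice. One pair came from small intestinal organoids at passage 1, grown alone (control) or in coculture with a partner that the labels do not name; 16 wells were pooled and 100000 epithelial cells were sorted for each, and both were submitted together. The age of the mice is not given in the sources used here. Another pair held dissociated cells of the small and of the large intestine, sorted from C57BL/6 mice and from Lgr5-eGFP-ires-CreERT2 mice on that background, with LGR5+ stem cells and CD31+ PDPN+ LYVE1+ lymphatic endothelial cells enriched. The last 4 were Visium sections of 10 µm, 2 of each tissue, described as technical duplicates. Every single-cell group was 1 library, so tissue or treatment and library cannot be told apart, and cell shares describe the sort, not the tissue. No p-value is given: intervals are exact 95% intervals that cover counting error only.

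Gasdermins are cytosolic proteins that a protease cuts to free a pore-forming domain, which inserts into membranes and can lead to lytic cell death or to the release of small cytokines. Gsdmd is the main target of the inflammatory caspases downstream of inflammasomes, and Gsdme is cut by caspase 3 and granzyme B. The Gsdmc genes are duplicated in the mouse and are known as genes of the gut epithelium that type 2 cytokines induce through STAT6.

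The 4 Gsdmc genes lie side by side on chromosome 15 over 136 kb (GRCm38.p6: Gsdmc at chr15:63775971-63808739, Gsdmc2 at chr15:63824328-63845193, Gsdmc3 at chr15:63857605-63878579 and Gsdmc4 at chr15:63891140-63912319), with 3 transcribed pseudogenes between or beside them. Gsdmd is on the same chromosome at chr15:75862144-75867408, and Gsdme is at chr6:50207401-50263857. Reads from near-identical copies may be divided between Gsdmc2, Gsdmc3 and Gsdmc4 or dropped, so each is uncertain on its own and the 3 are also given as a sum, called summed Gsdmc below. RefSeq promoter windows of 300 bases (GRCm38.p6, minus strand, 250 bases before to 50 after the start) were found for 2 of the 6 members, at chr15:63878509-63878808 for Gsdmc3 and at chr6:50261720-50262019 for Gsdme. They are shown as the matched members, 1 a Gsdmc copy and 1 not. Gsdmc3 was at 0 UMIs in organoids and at 67.9 to 108 CPM (a gene's UMIs scaled to a common library total) in the sections, whereas Gsdme was counted in all 8 libraries and was at 3.44 CPM or less in large intestinal sections. Capitals mark a TATANA match in Gsdmc3 and, in Gsdme, a match to GGGCGG on the opposite strand.
Gsdmc3: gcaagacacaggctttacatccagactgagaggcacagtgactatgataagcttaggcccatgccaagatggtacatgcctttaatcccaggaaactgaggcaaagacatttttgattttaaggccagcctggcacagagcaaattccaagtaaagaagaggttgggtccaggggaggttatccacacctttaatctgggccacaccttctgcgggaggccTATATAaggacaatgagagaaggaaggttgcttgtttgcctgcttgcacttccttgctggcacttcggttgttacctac
Gsdme: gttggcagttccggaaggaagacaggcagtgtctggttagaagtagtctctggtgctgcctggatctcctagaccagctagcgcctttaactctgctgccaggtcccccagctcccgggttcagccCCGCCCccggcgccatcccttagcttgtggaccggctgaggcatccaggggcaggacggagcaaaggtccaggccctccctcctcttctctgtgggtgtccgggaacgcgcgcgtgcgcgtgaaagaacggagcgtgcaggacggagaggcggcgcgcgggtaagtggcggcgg
In Gsdmc3 the TATANA match begins 29 bases before the start and reads as a match on both strands; 24.7% of 32851 RefSeq promoter windows of this length hold one. The GC content of the Gsdmc3 window is 48.3% and that of the Gsdme window 65.7%, with a median of 52.7% over all windows. GGGCGG occurs in 35.7% of windows, once in Gsdme (124 bases before the start) and not in Gsdmc3, and TATANA does not occur in Gsdme. Searched on both strands, TTCNNNNGAA (the spacing that STAT6 binds, in 6.95% of windows), TTTATGG (a CDX2 motif, 2.75%), CTTTGAT (a TCF/LEF motif, 3.73%) and CAAAGTCCA (an HNF4 motif, 0.475%) were in neither window, and CAGAC (a SMAD motif, 49.6%) was in both. The Gsdme window lies inside the annotated gene span.

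Depth and identity of the libraries are given once. After removal of barcodes with under 500 genes or over 20% mitochondrial UMIs and of predicted doublets, 538 control and 1028 cocultured organoid cells, 2695 small intestinal cells and 5882 large intestinal cells remained, with 43279721, 96956612, 52182125 and 123864787 UMIs. The sections held 2094 and 2571 small intestinal spots and 2094 and 2179 large intestinal spots, with 24355871 to 43832840 UMIs. In the small intestinal cell library 62.2% of the deposited barcodes exceeded the mitochondrial limit, against 23.8% in the large. Tissue labels fitted their markers: the Paneth cell gene Defa24 was at 62097 CPM in small intestinal cells and at most at 0.291 CPM in large intestinal libraries, and the hindgut gene Hoxb13 was at 0 in small intestinal cells and at 116 CPM in large. Organoid cells carried Defa24 at 3130 and 3915 CPM, and neither organoid library held a UMI of Hoxb13. The 2 organoid libraries shared no cell barcode, and the 2 tissue cell libraries shared 25.

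Summed Gsdmc was abundant in intact intestine of both tissues and all but missing from organoids. In the control organoids all 4 Gsdmc genes were at 0 UMIs, which allows a level of up to 0.0693 CPM each and a share of cells with a UMI of up to 0.558% of 538 cells. These limits are set at 3 counts, are not exact intervals, and do not bound the share of cells that express the gene. Cocultured organoids had 0 UMIs of Gsdmc, Gsdmc2 and Gsdmc3, which allows up to 0.0309 CPM each, and 9 UMIs of Gsdmc4 in 6 of 1028 cells (0.0928 CPM). These 6 cells each held 74857 to 144146 UMIs in all. Of them 3 were in the cycling-like class and 3 in clusters that received no name, and none was enterocyte-like.

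In sorted cells summed Gsdmc stood at 254 CPM in the small intestine (249 to 258) and at 156 CPM in the large (154 to 159). The sections had higher levels, 1015 and 775 CPM in the small intestine and 1119 and 1010 CPM in the large. The 2 tissues overlapped in the sections, and 90.0% to 95.8% of spots had a UMI (59.7% to 68.8% after each spot was thinned to 2000 UMIs). Of the sorted cells 27.1% in the small and 26.7% in the large intestine had a UMI, or 11.5% and 10.9% after thinning to 2000 UMIs, which left out 237 and 644 cells (median depths 11810 and 21761 UMIs). B-like cells, which should lack these genes, had one in 3.32% and 4.07% of cells, or 1.83% and 4.67% thinned, at median depths of 2802 and 2644 UMIs. In spots, fewer cells of a type and less RNA per cell cannot be told apart.

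Gsdmc2, one of the type 2 inducible copies, was at 61.9 CPM in sorted cells of the small and 30.9 CPM in those of the large intestine. Its level was 369 and 292 CPM in small intestinal sections and 316 and 267 CPM in large. Gsdmc3 was at 22.2 and 11.1 CPM in small and large intestinal cells, at 108 and 85.7 CPM in small intestinal sections and at 81.9 and 67.9 CPM in large. For Gsdmc3 both small intestinal sections were above both large ones, by a margin smaller than the difference between the small intestinal pair.

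Gsdmc4 reached 170 CPM in sorted small intestinal and 114 CPM in sorted large intestinal cells. Its sections stood at 538 and 397 CPM in the small intestine and at 721 and 674 CPM in the large, so that Gsdmc4 alone of the copies was higher in both large intestinal sections. Gsdmc itself was counted rarely, with at most 35 UMIs in any library. It had 8 UMIs in small and 3 in large intestinal cells, 7 and 35 UMIs in small intestinal sections and 15 and 19 UMIs in large, so the 2 small intestinal sections differed from each other by more than the tissues did.

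Gsdmd was present in every library. It was at 40.9 CPM in control organoids, 28.9 CPM in cocultured organoids, 36.3 CPM in small intestinal cells and 40.9 CPM in large intestinal cells. Small intestinal sections had 165 and 176 CPM and large intestinal sections 138 and 145 CPM, without overlap. Gsdme was at 7.81 CPM in control and 6.77 CPM in cocultured organoids, and sorted cells had 16.7 CPM in the small and 20.03 CPM in the large intestine. In small intestinal sections Gsdme was at 64.2 and 76.7 CPM. In large intestinal sections it was at 3.44 and 2.76 CPM, from 142 and 121 UMIs. Gsdme was thus about as high in large as in small intestinal sorted cells, and far lower in large than in small intestinal sections.

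**Figure D1:**
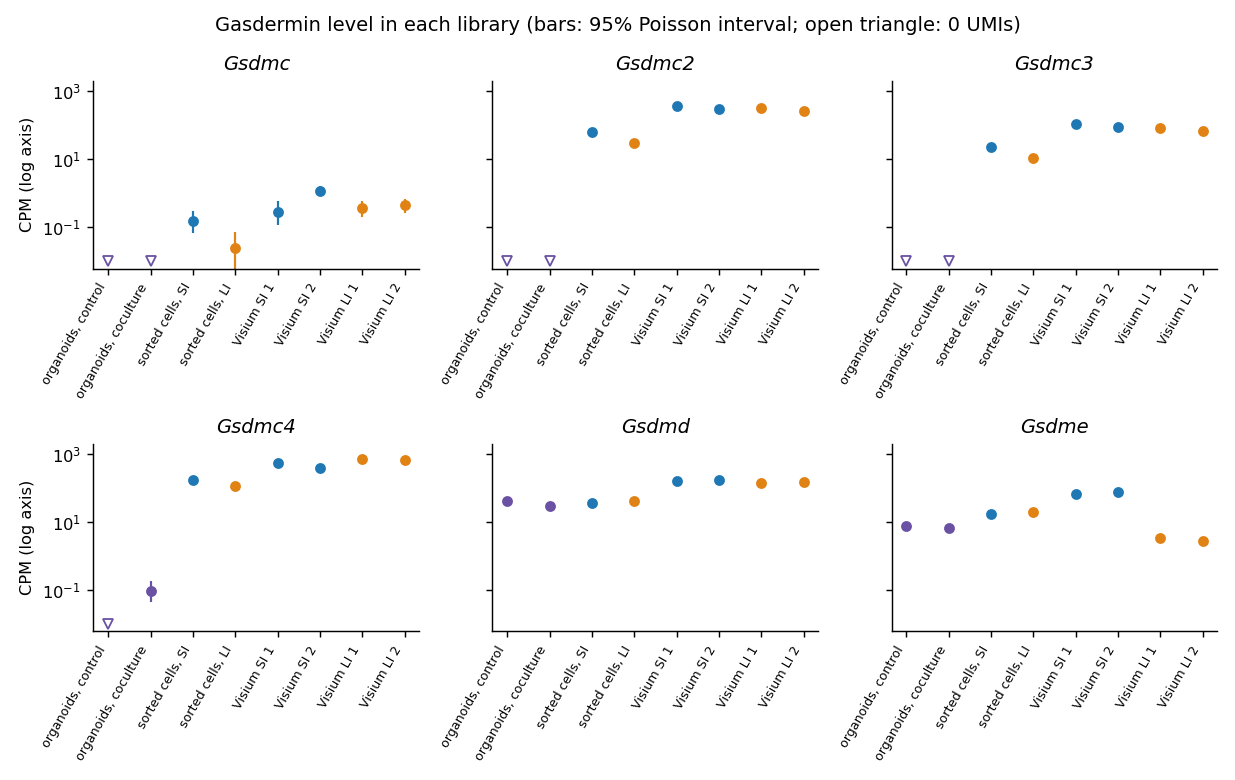
Level of each member gasdermin in each of the 8 libraries, in CPM on a log axis, with exact Poisson intervals as bars and an open triangle for 0 UMIs. Gsdmc2 and Gsdmc3 are at 0 in both organoid libraries, and Gsdme is at 64.2 and 76.7 CPM in small and at 3.44 and 2.76 CPM in large intestinal sections.

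The copies were counted in differing proportions in the tissues. Gsdmc4 made up 66.9% of summed Gsdmc UMIs in small and 73.1% in large intestinal cells, and 53.0% and 51.2% in small against 64.4% and 66.8% in large intestinal sections. Gsdmc2 gave 24.4% and 19.8% in small and large intestinal cells, 36.4% and 37.7% in small and 28.2% and 26.5% in large intestinal sections. Gsdmc3 gave 8.74% and 7.07% in small and large intestinal cells, 10.7% and 11.1% in small and 7.32% and 6.72% in large intestinal sections. By cells and by sections alike, large intestine had the larger Gsdmc4 share and the smaller shares of Gsdmc2 and Gsdmc3. Sections also differed from cells of the same tissue, with less Gsdmc4 in the sections.

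**Figure D2:**
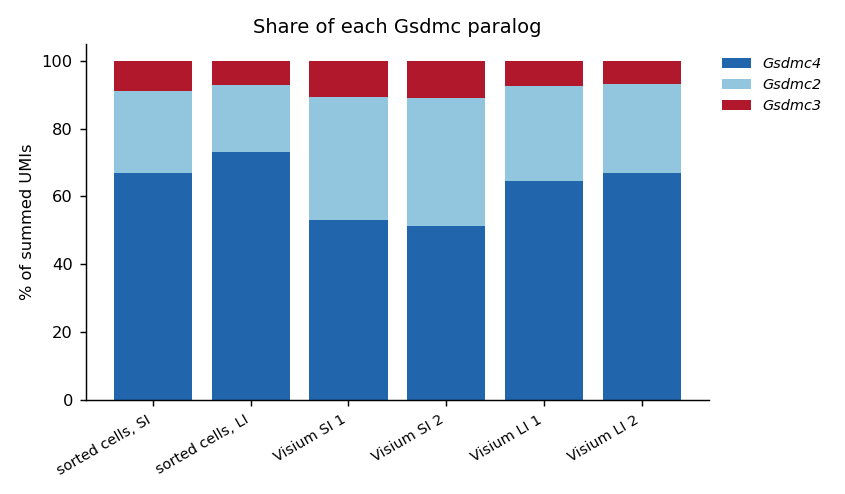
Share of summed Gsdmc2, Gsdmc3 and Gsdmc4 UMIs that each copy gave, in %, in the 2 sorted-cell libraries and the 4 sections. The Gsdmc4 part is 66.9% in small and 73.1% in large intestinal cells, and 53.0% and 51.2% in small against 64.4% and 66.8% in large intestinal sections.

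Most of the small intestinal signal of the copies came from a few clusters. Cells were clustered without the members and the pathway genes described further on, and clusters were named from marker genes, with the word -like, or left unnamed. Cluster 6, which received no name and was led by Pla2g4c, Mgat4c, Car4, Krt19 and Fabp6 (154 cells), had the top level, 1199 CPM, with a UMI in 93.5% of its cells. The 3 enterocyte-like clusters stood at 731 CPM (cluster 10, led by the ileal bile acid genes Fabp6 and Slc10a2, 115 cells), 611 CPM (cluster 4, led by Reg1 and with Sis, 164 cells) and 111 CPM (cluster 18, led by Fabp1 with Lct, 62 cells). Cluster 10 reached its level with a UMI in 36.5% of its cells, whereas cluster 4 had one in 79.9%; the top single cells held 221 and 228 UMIs. Together clusters 6, 10 and 4 gave 82.8% of the summed Gsdmc UMIs of the library from 27.7% of the cells in epithelial clusters.

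Cycling-like cells of the small intestine were divided. Clusters 15 and 8 were at 291 and 234 CPM, and cluster 9, led by histone and mitosis genes, was at 20.3 CPM. The stem-like cluster was at 14.5 CPM (10.6 to 19.4). Secretory and sensory clusters, namely Paneth-like, enteroendocrine-like, deep crypt secretory-like, tuft-like and goblet-like, were between 3.69 and 9.22 CPM. The deep crypt secretory list shares Agr2, Muc2, Spink4 and Tff3 with the goblet list, so that name is uncertain in the small intestine. Classes other than epithelium, which should lack these genes, were at 10.5 CPM (8.24 to 13.3) with a UMI in 5.74% of cells at a median of 3595.5 UMIs. Those secretory levels therefore did not exceed the background of the library, and 7 of 13 epithelial clusters did.

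In the large intestine the copies peaked in the colonocyte-like cluster and in clusters without a name. Cluster 10, without a name and led by Saa1, Tgm3, Clca4b and Ly6g (227 cells), was at 1105 CPM with a UMI in 89.9% of cells. The colonocyte-like cluster 15 (Cyp2c55, Car1, Krt20; 180 cells) was at 1039 CPM with a UMI in 75.0%. Cluster 21 (Ces1g, Akr1c19, Car1; 91 cells), also unnamed, followed with 544 CPM and 91.2%, and the unnamed cluster 25, led by Atf3, Hbegf and Fosb, with 347 CPM. Clusters 10, 15 and 21 gave 69.6% of summed Gsdmc UMIs of the library from 11.3% of the cells in epithelial clusters.

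The 3 stem-like clusters of the large intestine differed among themselves. Cluster 1, which carried the enzymes Sult1a1 and Ces1d, was at 235 CPM, cluster 5 (Trf, Fut9) at 49.1 CPM and cluster 0 (Reg3b, Cdca7) at 37.0 CPM. One goblet-like cluster, cluster 8 with Spink1 and Zg16, was at 102 CPM with a UMI in 44.3% of cells, while the other goblet-like clusters 24 and 9 were at 16.2 and 6.45 CPM. Both deep crypt secretory-like clusters (8.81 and 6.56 CPM) and the tuft-like cluster (7.30 CPM) lay near the 7.29 CPM (5.88 to 8.94) of classes other than epithelium. That background had a UMI in 5.91% of cells at a median of 6003.5 UMIs, and 13 of 20 epithelial clusters were above it. These include the low-depth clusters 29 and 7, at 75.8 and 66.0 CPM from 9 and 35 UMIs.

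**Figure D3:**
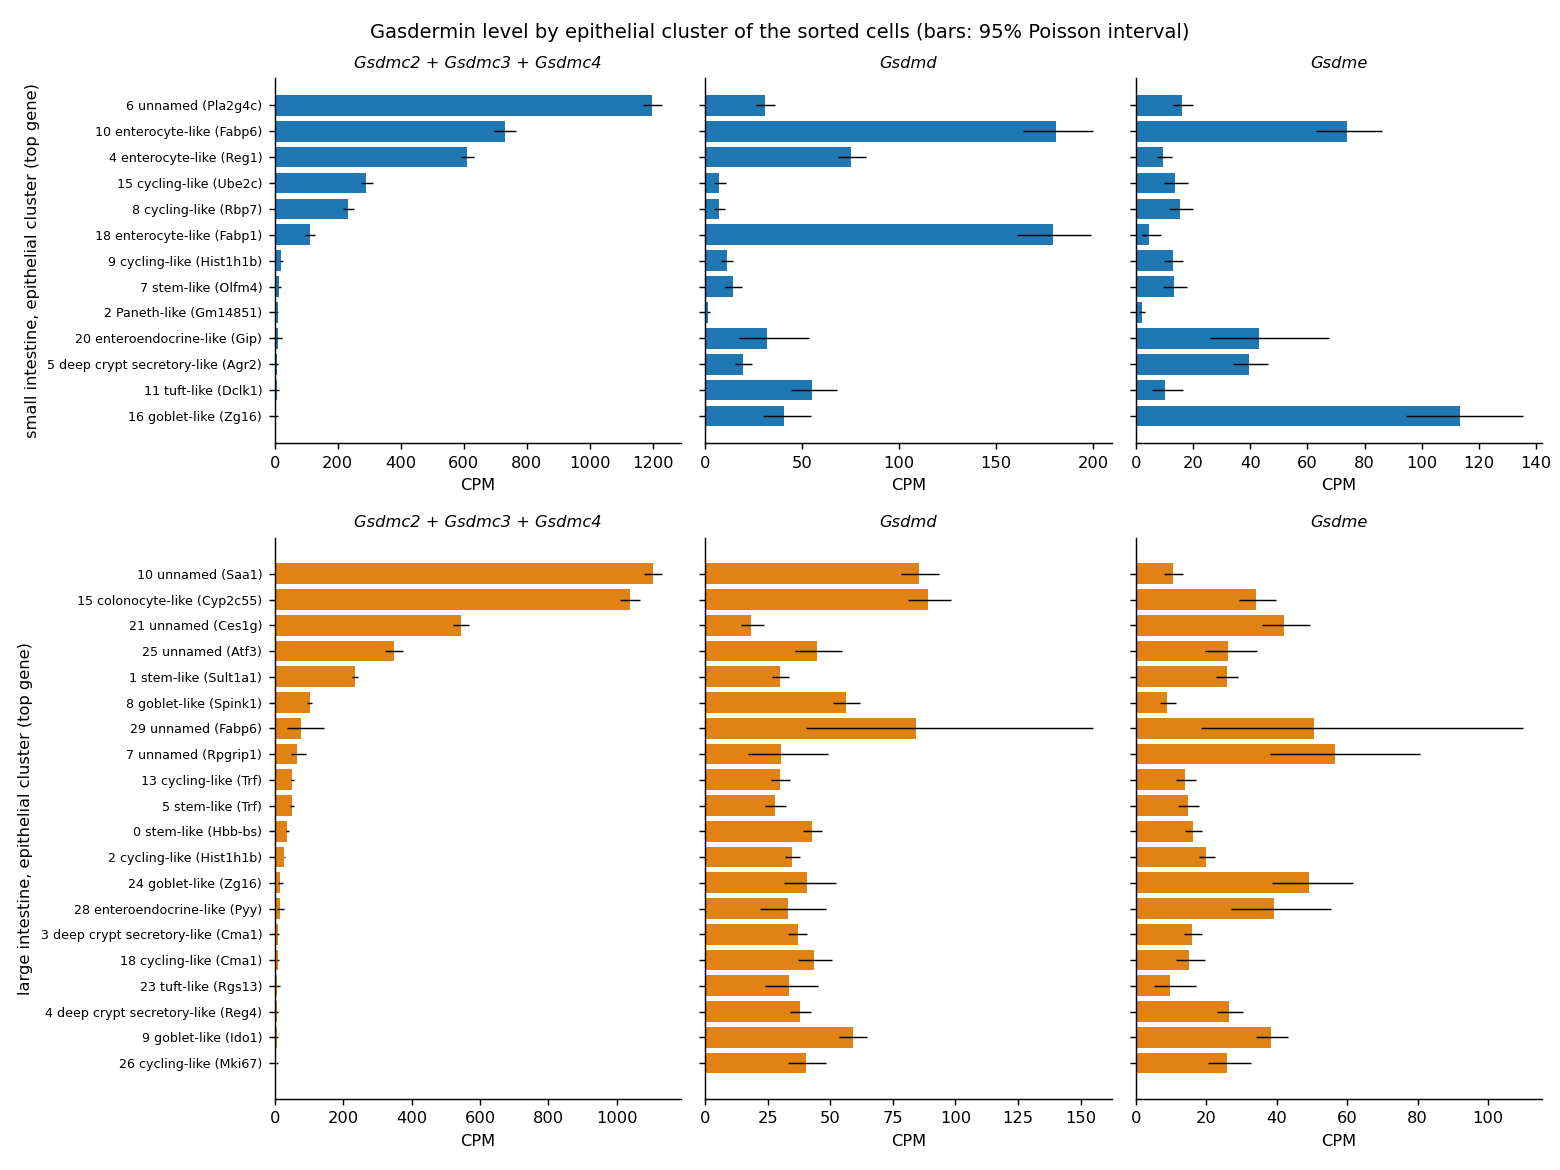
Level in CPM of summed Gsdmc2, Gsdmc3 and Gsdmc4, of Gsdmd and of Gsdme in each epithelial cluster of the small (top) and large intestinal cells (bottom), with 95% Poisson intervals. Summed Gsdmc is concentrated in small intestinal clusters 6, 10 and 4 and large intestinal clusters 10, 15 and 21, while Gsdmd and Gsdme follow other orders.

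UMIs of the copies tended to be found in the same cells. Among small intestinal epithelial cells with a Gsdmc4 UMI, 61.6% also had Gsdmc2, against 6.90% of cells without; in the large intestine these shares were 47.3% and 4.11%. For Gsdmc3 the shares were 44.6% against 2.64% in the small and 32.3% against 1.24% in the large intestine. Gsdmd was found in 54.0% against 34.2% of small intestinal and 62.7% against 50.6% of large intestinal cells. Gsdme was nearly as frequent with Gsdmc4 as without it, 29.9% against 29.6% in the small and 38.9% against 33.3% in the large intestine. These shares were not thinned, and deeper cells are more likely to show every gene. They also pool all epithelial clusters, whose summed Gsdmc levels differ widely, and reads may be divided between near-identical copies. The part of each was not tested.

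Gsdmd, the gasdermin of inflammasome signalling, had another order of clusters. In the small intestine it was highest in the enterocyte-like clusters 10 and 18, at 181 and 179 CPM, followed by the enterocyte-like cluster 4 at 75.3 CPM and the tuft-like cluster at 55.2 CPM. Cluster 6, which led for the Gsdmc copies, was at 30.8 CPM, close to the 28.5 CPM (24.7 to 32.8) of classes other than epithelium. Stem-like cells were at 14.2 CPM, cycling-like clusters between 6.85 and 10.9 CPM, and Paneth-like cells at 1.32 CPM. The lymphatic endothelial-like class of this tissue stood at 55.9 CPM, so Gsdmd was not limited to epithelium.

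In the large intestine Gsdmd was spread more evenly. The colonocyte-like cluster 15 and cluster 10 were at 89.2 and 85.4 CPM and the goblet-like clusters 9 and 8 at 58.9 and 56.4 CPM; cluster 29 had 84.2 CPM from 10 UMIs. Cluster 21 was lowest of the epithelial clusters at 18.4 CPM, and 15 of 20 epithelial clusters exceeded the 22.04 CPM (19.5 to 24.8) of the remaining classes.

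Gsdme, the target of caspase 3, was highest in a goblet-like cluster among the named clusters of each tissue, but secretory clusters differed widely. The goblet-like cluster of the small intestine was at 114 CPM with a UMI in 60.9% of cells, the enterocyte-like cluster 10 at 73.8 CPM in 60%, the enteroendocrine-like cluster at 43.2 CPM and the deep crypt secretory-like cluster at 39.7 CPM in 50.3%. The enterocyte-like clusters 4 and 18 had only 9.63 and 4.62 CPM, Paneth-like cells 2.08 CPM, and classes other than epithelium 4.24 CPM. In the large intestine the goblet-like cluster 24 was at 49.2 CPM, cluster 21 at 42.2 CPM, the enteroendocrine-like cluster at 39.3 CPM, the goblet-like cluster 9 at 38.4 CPM and the colonocyte-like cluster at 34.2 CPM. Here the goblet-like cluster 8, which carried the Gsdmc copies, was low in Gsdme at 8.91 CPM, and the deep crypt secretory-like clusters 4 and 3 were at 26.5 and 16.0 CPM. Clusters 7 and 29 had higher Gsdme levels (56.6 and 50.5 CPM), but rest on 30 and 6 UMIs in cells of low depth.

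To compare tissues within absorptive cells, the colonocyte-like class of the large intestine (cluster 15, 180 cells) was set beside the enterocyte-like class of the small intestine (clusters 4, 10 and 18, 341 cells). A gene counts as called where the group with the higher level holds 30 UMIs or more and the log2 ratio is at least 1, or -1 or less. Summed Gsdmc was 1039 CPM in colonocyte-like and 539 CPM in enterocyte-like cells, a log2 ratio of 0.95 (0.89 to 1.00). Over all kept cells the ratio was -0.70 (-0.73 to -0.67), opposite in sign, and it ranged from -0.81 to -0.24 over alternatives. Gsdmc4 was 777 against 366 CPM (1.09; 1.02 to 1.15), Gsdmc2 214 against 130 CPM (0.72; 0.60 to 0.84) and Gsdmc3 47.7 against 42.3 CPM (0.17; -0.07 to 0.41). The Gsdmc3 interval included 0.

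Of 5 members with enough UMIs, 1 was called higher in colonocyte-like cells, Gsdmc4, and 0 were called lower. Of all 9587 genes, 12.6% were called higher and 12.5% lower. The Gsdmc4 call held under 7 of 13 alternatives (1.04 to 1.38) and was lost under 6 (0.31 to 0.68), among them both other cell filters. Gsdmd was 89.2 against 120 CPM (-0.43; -0.59 to -0.27) and Gsdme 34.2 against 23.1 CPM (0.56; 0.27 to 0.86). The values depended on which cells counted as absorptive. The log2 ratio of summed Gsdmc ranged from 0.29 under a strict cell filter to 1.18 with 4000 variable genes. That of Gsdme ranged from -0.39 for the mean of each cell's CPM to 0.96 under the strict filter. The Gsdmc2 ratio ranged from -0.06 to 0.83 and the Gsdmc3 ratio from -0.46 to 0.63, so both turned in sign. The Gsdmd ratio ranged from -1.11, past the threshold, to -0.02.

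Organoid enterocyte-like cells provided the contrast with tissue of the same organ. Summed Gsdmc was 539 CPM in 341 small intestinal enterocyte-like cells and 0 UMIs in 229 organoid enterocyte-like cells (178 cocultured and 51 control), at least 3380-fold higher in tissue against a floor of 3 counts over the organoid group. By copy the bounds were at least 816-fold higher for Gsdmc2, at least 265-fold higher for Gsdmc3 and at least 2299-fold higher for Gsdmc4. Organoid enterocyte-like cells stayed at 0 Gsdmc UMIs under each filter and clustering tried but one: with members and pathway genes put back into the clustering, the class held 358 cells and 2 UMIs.

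Gsdme was 23.1 CPM in tissue and 2.82 CPM in organoid enterocyte-like cells, 8.22-fold higher in tissue (log2 ratio 3.04; 2.60 to 3.50), and Gsdmd 120 against 72.2 CPM (0.73; 0.62 to 0.85). The tissue class includes the Gsdme-rich cluster 10. Of 5 members tested 4 were called higher in tissue, Gsdmc2, Gsdmc3, Gsdmc4 and Gsdme, and 0 lower, where 15.1% of 10033 genes were called higher and 9.16% lower. Among all calls 62.3% were higher in tissue. Median-of-ratios scaling, which shifts the log2 ratios by -0.32, turned that share to 42.0%. Gsdmd was then at a log2 ratio of 0.41. Over 11 alternatives Gsdmd ranged from 0.23 to 1.09 and passed the threshold under 3: 4000 variable genes, members put back into clustering and the mean of each cell's CPM.

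Coculture of organoids was compared with organoids alone. Gsdmd was at 28.9 CPM in cocultured (27.8 to 29.98) and 40.9 CPM in control organoids (39.0 to 42.8), a log2 ratio of -0.50 (-0.59 to -0.41). It was found in 67.2% and 66.4% of cells, or in 24.6% and 34.4% after thinning to 10000 UMIs, which left out 109 cocultured and 88 control cells. Gsdme was at 6.77 against 7.81 CPM (-0.21; -0.40 to -0.01). Of 2 members tested, 0 were called higher and 0 lower, and 2.23% of 12804 genes were called higher and 3.53% lower. The median log2 ratio of all genes was -0.10. Of all calls 38.8% were higher in coculture, and 50.3% after median-of-ratios scaling, which shifts the ratios by 0.15 and puts Gsdmd at -0.35.

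Class make-up differed between the organoid libraries, so Gsdmd was also compared within classes held by both and within the pooled unnamed clusters. That pool held 61.7% of control cells (332) and 52.9% of cocultured cells (544). Its own make-up differed too, with 82 control and 37 cocultured cells in organoid cluster 7, so pooling does not remove that difference. Gsdmd was lower in coculture in enterocyte-like cells (65.3 against 98.8 CPM; log2 ratio -0.60, -0.77 to -0.42), in unnamed clusters (28.8 against 47.2 CPM; -0.71) and in cycling-like cells (12.2 against 15.7 CPM; -0.37, -0.64 to -0.09). The stem-like class gave 9.69 against 30.2 CPM (-1.64; -2.31 to -1.02), from 23 cocultured and 40 control cells. In Paneth-like cells the interval included 0 (-0.23; -0.82 to 0.38). For Gsdme the interval included 0 in each of these groups of cells.

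In the sections, Gsdme set the tissues apart most among the members. The mean of the 2 sections was 3.10 CPM for the large and 70.4 CPM for the small intestine, 22.7-fold lower in large intestine (log2 ratio -4.51; -4.71 to -4.34 from the pooled counts), and the sections did not overlap. Gsdmc4 was higher in large intestine (0.58), Gsdmc3 lower (-0.37) and Gsdmd lower (-0.27), each without overlap of sections. How many of all genes had sections without overlap was not counted, so the lack of overlap only describes these sections. Gsdmc2 (-0.18), Gsdmc (-0.86) and summed Gsdmc (0.25) overlapped between tissues. Of the 6 members, 0 were called higher in large intestine and 1, Gsdme, lower. Of 15602 genes, 14.2% were called higher and 15.4% lower, with a median log2 ratio of 0.02. In sorted cells Gsdme had a log2 ratio of 0.26 over all kept cells and of 0.56 in absorptive classes, opposite in sign to the sections.

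Spots were ordered from crypt-rich to surface-rich by the share of UMIs from surface genes (Apoa4, Apoa1, Alpi, Ada, Nt5e and Slc28a2 in the small intestine; Aqp8, Car4, Slc26a3, Guca2a, Krt20 and Slc20a1 in the large) and divided into 4 bins of equal size per section. In the small intestine summed Gsdmc was lower toward the surface, from 1555 through 1426 and 910 to 388 CPM in section 1 and from 1283 through 1109 and 631 to 248 CPM in section 2. In the large intestine it went from 807 through 1345 and 1566 to 905 CPM in section 1 and from 654 through 1124 and 1439 to 915 CPM in section 2. The small intestinal peak was thus in the bin poorest in surface UMIs, and the large intestinal peak in the bin next to the surface. The log2 ratio of the last to the first bin was -2.002 and -2.37 in small and 0.17 and 0.48 in large intestinal sections. Ordered by surface over surface plus crypt UMIs instead, the mean ratio was -1.63 in small and 1.00 in large intestinal sections.

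Muscle genes also differed along the order in the small intestine, from 7863 CPM in the first to 1080 CPM in the last bin of section 1 and from 15748 to 1299 CPM in section 2. Spots with few muscle UMIs were therefore taken alone, a choice made after seeing the data. The ratio of summed Gsdmc was then -2.93 and -3.53 in small and 0.10 and 0.35 in large intestinal sections. Sorted epithelial cells ordered by the same small intestinal genes went the other way, from 112 through 217 and 378 to 478 CPM (log2 ratio 2.10; 1.999 to 2.19). Without secretory classes the levels were 247, 393, 759 and 372 CPM, with the peak in the bin next to the end. Large intestinal epithelial cells were higher toward the surface end, from 63.6 through 152 and 187 to 286 CPM (2.17; 2.09 to 2.25), and without secretory classes from 48.1 through 95.7 and 241 to 598 CPM (3.64).

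Gsdmd was higher toward the surface in each section. Its bins were 45.8, 83.7, 194 and 292 CPM and 57.2, 96.0, 217 and 296 CPM in small intestinal sections, with log2 ratios of 2.67 and 2.37. In large intestinal sections they were 66.9, 99.2, 157 and 245 CPM and 69.8, 93.9, 158 and 255 CPM, with log2 ratios of 1.88 and 1.87. Over all settings tried, spots with few muscle UMIs among them, the mean ratio was 2.23 to 2.92 in small intestinal sections. In large intestinal sections it was 1.70 to 1.90. Sorted epithelial cells gave the same direction, with 2.66 in the small and 0.99 in the large intestine.

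In the sections, Gsdme followed Gsdmd in the small intestine and not in the large; sorted cells did not show this. Its small intestinal bins were 17.9, 27.0, 66.8 and 124 CPM and 25.4, 42.4, 84.9 and 135 CPM (log2 ratios 2.79 and 2.41). Large intestinal bins stayed between 2.16 and 4.12 CPM, with log2 ratios of -0.40 (-1.08 to 0.26) and -0.29 (-0.99 to 0.40), whose intervals include 0. Over the same settings as for Gsdmd, the mean Gsdme ratio was 2.24 to 2.79 in small and -0.67 to -0.32 in large intestinal sections. Over sorted epithelial cells the Gsdme ratio was 0.06 (-0.22 to 0.34) in the small intestine and 0.81 (0.63 to 0.99) in the large, and without secretory classes 0.91 and 0.63.

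**Figure D4:**
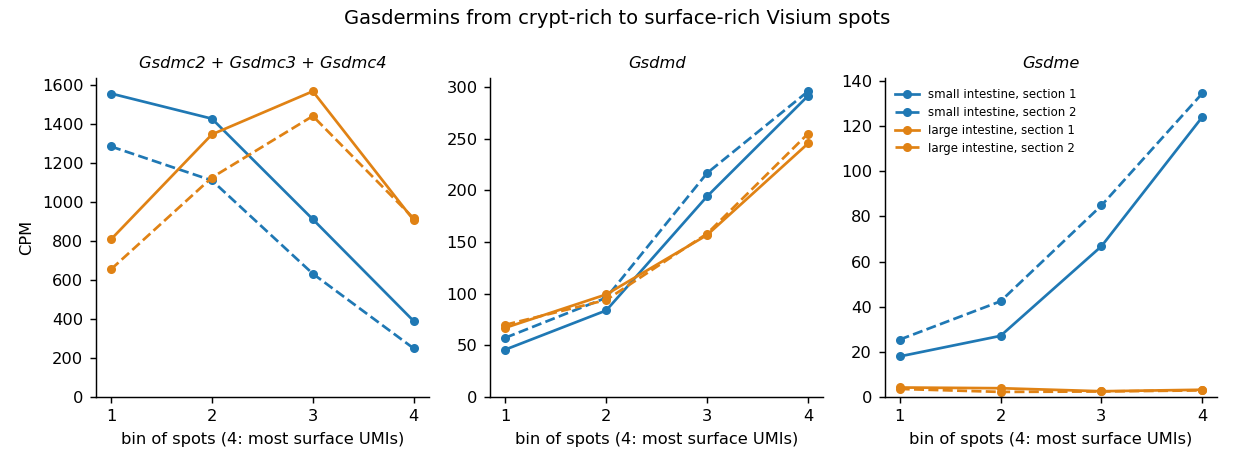
Level in CPM (vertical) of summed Gsdmc2, Gsdmc3 and Gsdmc4, of Gsdmd and of Gsdme in 4 bins of spots (horizontal), ordered by the share of surface-gene UMIs, with 1 line per section. Summed Gsdmc goes from 1555 to 388 CPM in small intestinal section 1 and peaks at 1566 CPM in large intestinal section 1, while Gsdme reaches 124 and 135 CPM in small and at most 4.12 CPM in large intestinal sections.

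The mix of copies also varied along the large intestinal order. Gsdmc3 gave 10.1%, 8.77%, 5.82% and 4.54% of summed Gsdmc from the first to the last bin of section 1 and 9.86%, 8.27%, 5.65% and 4.23% in section 2. Its share was flatter in the small intestine, between 9.10% and 11.7% in section 1. In sorted large intestinal cells the Gsdmc3 share was 4.59% in the colonocyte-like cluster 15, 7.36% in cluster 10, 13.8% in the stem-like cluster 0 and 15.5% in cluster 25. The lower Gsdmc3 shares were thus found at the surface end in sections and in colonocyte-like cells.

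Spots were also clustered without the members into 10 small and 11 large intestinal regions, called by their leading genes. In the small intestine summed Gsdmc was highest in region 3, led by the proliferation genes Birc5 and Ube2c (2453 and 2710 CPM in sections 1 and 2), and in region 0, led by Ms4a18 and Apol10a (1915 and 1573 CPM). Region 4, led by the Paneth cell defensins, had 606 and 665 CPM, region 2 with the villus genes Slc28a2, Ada and Apoa4 589 and 326 CPM, and region 5 (Nts, Pyy, Slc10a2) 355 and 227 CPM. The lowest was region 7, led by the neuronal genes Gal and Nmu, with 217 and 118 CPM. Gsdmd had another order. It was highest in region 5 (325 and 318 CPM) and next in region 2 (255 and 279 CPM), and region 3 had 40.4 and 47.5 CPM. Region 0, high in summed Gsdmc, ranked 4 of 10 for Gsdmd in both sections, with 178 and 186 CPM. The whole sections were at 165 and 176 CPM of Gsdmd. Region 7 was low in summed Gsdmc and in Gsdmd, with 58.0 and 40.3 CPM of Gsdmd. Gsdme was likewise high in region 5 (122 and 127 CPM) and region 2 (120 and 136 CPM) and low in region 3 (20.9 and 32.6 CPM).

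In the large intestine summed Gsdmc was highest in region 7, led by the antimicrobial lectin Reg3b with Sptssb and Guca2a (3175 and 3000 CPM). Then came region 5 (Retnlb, Pla2g4c; 1826 and 1578 CPM), region 10 (Itln1, Meg3; 1828 and 1408 CPM) and region 2 (Cyp2c68, Hao2; 1455 and 1462 CPM), whose order differed between the sections. The lowest was region 6, led by the lymphatic genes Ccl21a and Mmrn1, with 181 and 170 CPM. Gsdmc3 alone was highest in region 2, at 143 and 125 CPM, but its intervals overlapped those of regions 5, 7 and 10 in both sections. Gsdmd led in region 3 (Ifit1bl1, Clca4b, Ly6g; 287 and 318 CPM) and region 4 (S100g, Atp12a; 255 and 253 CPM), where summed Gsdmc was 393 and 397 CPM and 767 and 760 CPM. Gsdme lay between 1.21 and 5.35 CPM in every large intestinal region.

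**Figure D5:**
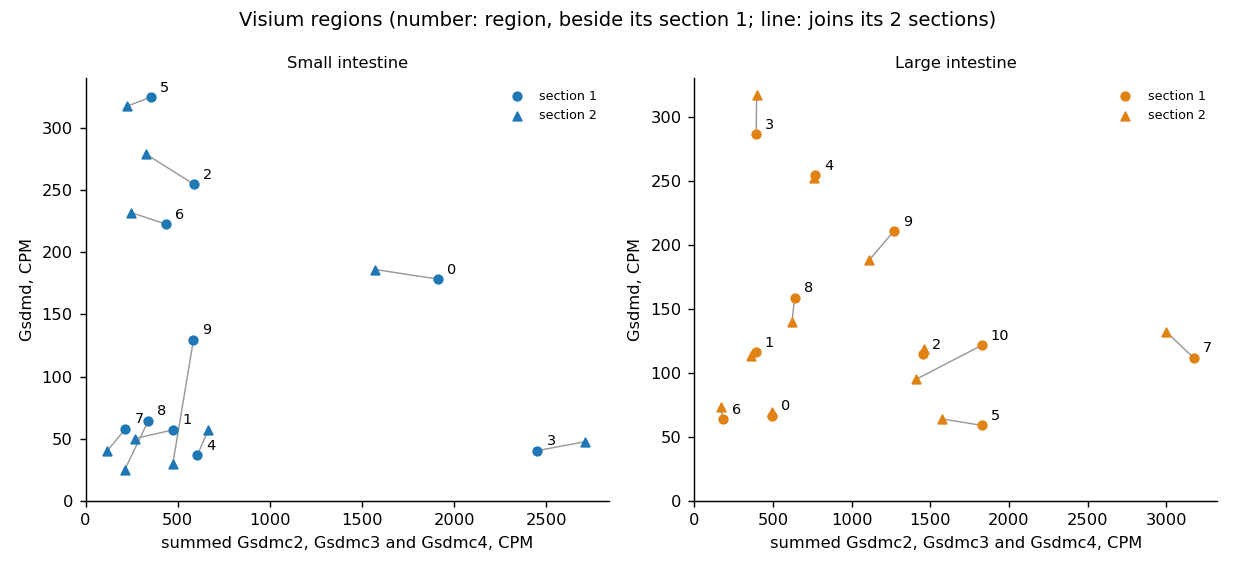
Summed Gsdmc2, Gsdmc3 and Gsdmc4 (horizontal, CPM) against Gsdmd (vertical, CPM) in each Visium region, with circles for section 1, triangles for section 2 and a line joining the sections of a region. Small intestinal region 3 is at 2453 and 2710 CPM of summed Gsdmc with 40.4 and 47.5 CPM of Gsdmd, and large intestinal region 7 reaches 3175 and 3000 CPM.

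The genes with the profile most like summed Gsdmc were listed by Pearson's r of log2(CPM + 1), as a description over groups that share libraries. Over 16 large intestinal cell classes they were Apol10a (r = 0.96), Slc6a14, Eif4ebp3, Eif2s2 and Gsta1 (0.94), and over 16 small intestinal classes Hsd3b3 (0.95), Ugt1a1, Ms4a18 and Vstm2l (0.93). Over 42 Visium regions by section they were Krt18 (0.87), Mdp1, Tfrc, Mal2 and Gnpnat1 (0.76). For Gsdmd over 32 cell classes the list was Chmp2a (0.83), Snapc5, Chmp5, Stx8 and Scp2 (0.81), and over the Visium regions Ptprj (0.96), Slc44a4, Muc3, Clic5 and Chmp1b (0.92). For Gsdme it was Slc35c1 (0.85), Plekhb2, Pmm2, Naip5 and Comtd1 (0.79) over classes and Soat2 (0.96), Cndp1, Slc22a4, Sucnr1 and Reg3a (0.92) over regions. The lists of the 3 profiles had no gene in common, but each holds so few of all genes that this does not set the profiles apart.

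The other gasdermins were rare. Gsdma had 3 UMIs in control and 100 in cocultured organoids, 38 in small and 70 in large intestinal cells. Of the 100 cocultured UMIs, 97 were in the 22 enteroendocrine-like cells (14 with a UMI), and this class was also the main site in tissue, at 61.4 CPM in the small (3 of 32 cells with a UMI) and 55.3 CPM in the large intestine (15 of 53 cells). Gsdma2 stood at 3.53 CPM in sorted small intestinal and 0.113 CPM in sorted large intestinal cells. Of its small intestinal UMIs 65.2% were in deep crypt secretory-like cells (28.9 CPM), and in organoids it was highest in Paneth-like cells (18.2 CPM in control and 22.04 CPM in coculture). Gsdma3 and Pjvk had at most 5 UMIs in any library.

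Genes that act with gasdermins were taken from 9 lists of 76 genes. In organoids 2 of 59 pathway genes tested were called higher and 4 lower in coculture (3.39% and 6.78%, against 2.23% and 3.53% of all genes). Gsdma was higher (log2 ratio 3.90; 2.31 to 6.20, from 3 control UMIs). The enteroendocrine-like class held 97 of its 100 cocultured UMIs, 25 of them in 1 cell. This class had 22 cocultured and 5 control cells, and the control cells held 0 Gsdma UMIs. The part of cell number was not tested. Also higher was Il18, a cytokine that leaves through gasdermin pores (74.0 against 30.9 CPM; 1.26). Lower were the interleukin 1 antagonist Il1rn (7.88 against 49.7 CPM; -2.66), the sensor Nlrp10 (-1.75) and the alarmin Il33 (-1.72); the remaining one, Sprr2a3 (-1.22), was outside the naming rule. Of 4 cytokine cargo genes tested 1 was higher and 2 lower, with a list median of -0.92 against -0.10 over all genes. None of 7 caspases and related proteases was called, with a median of -0.02. Of 7 genes each, none was called among membrane rupture and repair genes (median -0.21), acylation and Ragulator-Rag genes (-0.04) and interferon regulatory factors (-0.14).

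In the absorptive classes 8 of 55 pathway genes tested were called higher and 6 lower in the large intestine (14.5% and 10.9%, against 12.6% and 12.5% of all genes). The highest ratios were those of the type 2 induced goblet product Retnlb (768 against 2 UMIs; log2 ratio 9.60, 7.75 to 12.65, or 9.02 with the 2 set to 3), of Il1rn (65 UMIs against 1; 7.04, 4.51 to 12.37, or 5.46 with the 1 set to 3) and of the DNA sensor Aim2 (46.9 against 1.64 CPM; 4.84). The lowest were those of Casp6, an apoptotic caspase (34.6 against 296 CPM; -3.09), Il33 (-2.94) and the flagellin sensor Naip5 (-1.66). Among 9 inflammasome sensors tested 1 was higher and 2 lower, with a median of -0.51 against -0.04 over all genes. Of 7 TGF-beta and BMP receptor genes 2 were higher and 0 lower (median 0.39). Of 7 type 2 cytokine signalling genes 2 were higher and 1 lower (median -0.14).

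Between tissue and organoid enterocyte-like cells 9 of 54 pathway genes tested were called higher in tissue and 2 lower (16.7% and 3.70%, against 15.1% and 9.16% of all genes). With median-of-ratios scaling the counts were 7 higher and 5 lower. Highest were the sensors Zbp1 (27.4 against 0.584 CPM; log2 ratio 5.55) and Nlrp9b (11.8 against 1.49 CPM; 2.99) and the inflammatory caspase Casp4 (28.9 against 5.47 CPM; 2.40). Lower in tissue were Tgfbr2, a TGF-beta receptor (2.87 against 25.5 CPM; -3.15), and its ligand Tgfb1 (6 against 33 UMIs; -1.51). Of 9 inflammasome sensors 4 were higher and 0 lower (median 0.92 against 0.24 over all genes). Of 7 caspases and related proteases 2 were higher and 0 lower (median 0.92), and none of 6 type 2 cytokine signalling genes was called (median 0.15).

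In the sections 9 of 64 pathway genes tested were called higher in the large intestine and 9 lower (14.1% each, against 14.2% and 15.4% of all genes). Cytokine cargo led the higher calls, with 3 of 5 tested higher and 0 lower (median 2.18 against 0.02): Il1rn (51.5 against 4.37 CPM; log2 ratio 3.56), Il18 (186 against 21.7 CPM; 3.10) and Il1b (6.79 against 1.501 CPM; 2.18). The lowest ratios were those of the type 2 cytokines Il13 (4 against 40 UMIs; -3.96) and Il25 (8 against 78 UMIs; -3.90) and of the protease Gzmb (-1.91). Of 12 inflammasome sensors 1 was higher and 4 lower (median 0.28). The 4, named after their values were seen, were Naip6 (-1.76), Naip5 (-1.72), its partner Nlrc4 (-1.56) and Nlrp9b (-1.44). Of 9 type 2 cytokine signalling genes 1 was higher and 3 lower (median -0.35), and none of 8 TGF-beta and BMP receptor genes was called (median 0.07).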

How the data were processed

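The deposited matrices held a whole-number count of UMIs for each gene and barcode, made by the authors with Cell Ranger 6.0.1 for cells and, per the file headers, Space Ranger 1.2.1 for sections; the genome build was mm10, per the submitters' processing notes, and the annotation release is not given in the sources used here. No deposited column was left unused (0). The members and gene lists were chosen with earlier results of these data known.

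Barcodes entered the analysis if they held 500 genes or more and a mitochondrial share of UMIs up to 20%, and Scrublet removed the highest-scoring cells at a rate of 0.8% per 1000 cells. Spots needed 500 UMIs. Cells and spots were clustered with scanpy 1.11.5 (Leiden, 2000 variable genes, 30 principal components, 15 neighbours, resolution 1 for cells and 0.5 for spots), without members and pathway genes. A cluster was named, with -like, from at least 3 detected markers of a list. Levels are CPM over summed UMIs with exact Poisson intervals, shares have Clopper-Pearson intervals, and ratios have exact intervals for a pair of Poisson counts (scipy 1.17.1, numpy 2.4.6, pandas 2.3.3, Python 3.11.15). A count of 0 was bounded at 3 counts. Calls and list medians also set counts of 1 or 2 to 3, while printed ratios of such genes use the counts themselves. The scripts were tested on simulated data. Depth ranged from 24355871 to 123864787 kept UMIs per library.

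With 1 library per single-cell group and technical duplicate sections, no test between groups was made. Named genes were the members, the other gasdermins, up to 3 called pathway genes at either end per comparison, and the 5 genes with the profile most like summed Gsdmc, Gsdmd or Gsdme among those with at least 100 UMIs; 1 gene that this rule names is not reported here. The 5 pathway genes outside the rule are marked where they are named. Alternatives changed the cell and spot filters, doublet removal, clustering, scaling, ordering and sections. Those on spots with few muscle UMIs, cells without secretory classes, added unnamed clusters, settings of the tissue to organoid ratio and scaling of the pathway lists were chosen after seeing the data.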

Additional observations from a re-analysis of the deposited data

Results flagged for a closer look

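Along the order from surface-poor to surface-rich spots, summed Gsdmc differed in direction between the tissues in every section. Its log2 ratio of the last to the first of 4 bins of spots was -2.002 and -2.37 in small intestinal sections and 0.17 and 0.48 in large intestinal sections. Gsdme had the opposite arrangement, with 2.79 and 2.41 in small and -0.40 and -0.29 in large intestinal sections, where its counts were few and both intervals included 0. In the large intestine summed Gsdmc peaked in the third bin and was lower in the last. Sorted epithelial cells ordered by the same genes had a higher summed Gsdmc toward the surface end in both tissues (2.10 in the small and 2.17 in the large intestine). Without secretory classes these ratios were 0.59 and 3.64, and the small intestinal cells then peaked in the third bin. The difference between tissues was not tested for either gene, and the sections of a tissue are technical duplicates. The part of muscle in these ratios was not tested beyond the values in spots with few muscle UMIs.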

How the results depend on the processing

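No paired analysis was possible because the result comes from no test, and the shared numbers of the sections name technical duplicates. Under alternatives 259 values were recomputed. Those of the main ratios, levels and counts stayed within a limit in 73 cases, passed it in 34 and turned in sign in 0. The limit was the counting interval or section spread for ratios and levels, and a fold change for counts of pathway genes. Levels and counts cannot turn in sign. Values of single genes stayed within the limit in 92 cases, passed it in 53 and turned sign in 7. The ratio of summed Gsdmc between absorptive classes (0.95) was 0.56 with the loose and 0.29 with the strict filter, 0.52 with doublets kept, 0.42 and 1.16 at resolutions 0.5 and 2, 1.18 with 4000 variable genes, 0.41 with members put back into clustering, 0.49 with unnamed clusters added in both tissues and 1.07 for the cell-wise mean CPM. Over all kept cells (-0.70) it was -0.67 and -0.66 with the loose and strict filters, -0.24 for the cell-wise mean CPM, -0.58 without mitochondrial and ribosomal protein genes and -0.81 with median-of-ratios scaling. The enterocyte-like level (539 CPM) was 760.5 and 439 CPM at resolutions 0.5 and 2, 428 CPM with 4000 variable genes and 596 CPM with members put back; the colonocyte-like level (1039 CPM) was 982 CPM at resolution 2, 972 CPM with 4000 variable genes and 791 CPM with members put back. Gsdmd in coculture (-0.50) was -0.66 for the cell-wise mean CPM and -0.35 with median-of-ratios scaling, and in sections (-0.27) -0.12 without mitochondrial and ribosomal protein genes. Ordered by surface over surface plus crypt UMIs, the mean ratio of summed Gsdmc along the order was -1.63 in small and 1.00 in large intestinal sections, 3.69 in small and 3.48 in large intestinal cells. It was -3.23 in small intestinal spots with few muscle UMIs, 0.59 and 3.64 in small and large intestinal cells without secretory classes, and 1.80 in large intestinal cells divided in 3. Pathway genes lower in tissue than in organoid enterocyte-like cells (2) were 1 at a minimum of 100 UMIs and 5 with median-of-ratios scaling. Signs turned for Gsdmc2 between absorptive classes with unnamed clusters added in both tissues (-0.064), for Gsdmc3 with the strict filter (-0.047) and at resolution 0.5 (-0.46), and for Gsdme with unnamed colonocyte-best clusters added (-0.11) and for the cell-wise mean CPM (-0.39). They also turned for Gsdmd over all kept cells for the cell-wise mean CPM (-0.19) and for Gsdmc between sections, which ranged from -1.55 to 0.47 as each section was left out and turned without small intestinal section 2. The causes were not tested. Values of Gsdmc, Gsdma, organoid Gsdmc4 and large intestinal section Gsdme rest on few UMIs, which limits their precision. The tissue to organoid contrast of Gsdme ranged from 2.72 to 3.44 and the section ratio of Gsdme from -4.67 to -4.36.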

Other observations

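Barcodes that exceeded the mitochondrial limit held 19.8% of the summed Gsdmc UMIs deposited for small intestinal cells, 12.8% of the Epcam UMIs and 30.6% of all UMIs. With mitochondrial genes left out of the total, summed Gsdmc was at 358 CPM in these barcodes and at 275 CPM in those that passed. In the large intestinal library they held 5.92% of summed Gsdmc, 3.85% of Epcam and 6.00% of all UMIs. In control organoids Gsdma2 had 23 UMIs in 5 of 40 stem-like cells, 18 of them in 1 cell, and cocultured stem-like cells had 3 UMIs in 3 of 23 cells.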
